A study of Homo sapiens with 24 samples.

Results

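The 6 RNA-seq libraries described here are the control libraries of LN-229, a human glioblastoma cell line, out of 24 libraries in the series and 15 from this line. They were chosen by their titles: 3 libraries titled siControl and 3 titled siControl_2. Both sets hold cells of wild-type genotype that received a control siRNA, and both carry the same treatment label. Only the names of the deposited data place siControl_2 beside the double knockdown of ZFX and ZNF593 and siControl beside the single knockdowns. The other LN-229 groups received siRNA against ZFX (siZFX), against ZNF593 (siZNF593), or both (siZFX_siZNF593), with 3 libraries each. The cells were grown in DMEM with serum, total RNA was taken with Trizol, and libraries were built with the NEBNext Ultra II kit. The labels call the replicates biological but do not say whether each came from its own culture. The p-values of the gene tests measure the spread within the 5 groups of all 15 LN-229 libraries, knockdowns included, and this may in part be technical. The siRNA sequence, the dose, the day, the passage and the cell density of either set are not given in the sources used here. Whatever differed between the sets cannot be told apart from the set itself.

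A control siRNA is meant to engage the silencing machinery without matching any transcript, so that a knockdown can be read against cells handled in the same way. LN-229 is widely used as a model of adult glioma, and glioma cells can carry genes of the neural lineages beside genes of matrix production and inflammation. The control siRNA libraries are the baseline against which each knockdown of such a study is read.

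The libraries held 23168553 to 30159260 reads on genes in siControl and 20111290 to 22808382 in siControl_2, so the first set was deeper without overlap (exact permutation test, two-sided, p = 0.1, the smallest that 3 against 3 libraries allow). Markers of a neural and mesenchymal glioma line were present in all 6 libraries. The neural crest and oligodendrocyte factor SOX10 stood at 1260 to 1362 CPM (read counts per 1000000 reads on genes, with edgeR's normalisation factors), the intermediate filament VIM at 1153 to 1254 CPM and the hyaluronan receptor CD44 at 741 to 820 CPM, and none of these was called. Other markers did differ: CSPG4, OLIG2 and S100B were called higher and NES and EGFR lower, as given below. PDGFRA was not called. GFAP, at 1.43 to 2.99 CPM, and SOX9, at 0.876 to 2.61 CPM, were low and not called. SOX9 had a log2 difference of 1.05 ± 0.35 SE (adjusted p = 0.0581). ZFX, a target of the knockdowns, measured 55.2, 50.8 and 45.7 CPM in siControl and 48.8, 56.1 and 55.8 CPM in siControl_2, and the sets overlapped (log2 difference 0.083 ± 0.12 SE, adjusted p = 0.754). ZNF593 has 0 counts in the unstranded column used here. In the sum of both stranded columns it stood at 29.4 ± 2.14 CPM in siControl and 30.1 ± 2.72 CPM in siControl_2 (SD, n = 3). ZNF711, the paralog of ZFX, had 0 counts in siControl, which allows up to 0.0369 CPM over the set, and 3 counts in siControl_2.

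Of 17684 genes tested, 961 (5.43%) were higher in siControl_2 and 863 (4.88%) were lower at an adjusted p below 0.05 by edgeR's quasi-likelihood test, 1824 (10.3%) in all. The median fold of the called genes was 1.45 for the higher and 1.35 for the lower genes, and 718 (4.06% of those tested) reached 1.5-fold, 426 of them higher and 292 lower. At least 2-fold differences were found for 202 higher and 135 lower genes, and at least 4-fold for 40 and 39. Values of the 3 libraries of each set did not overlap for 957 of the 961 higher and 858 of the 863 lower genes, against 33.8% of all genes tested. The libraries do not mark strand, and 643 of the higher and 598 of the lower genes overlap another annotated gene, as do 12431 of all 17684 tested. Reads of such partners cannot be told apart or were left out as ambiguous. In the plot of difference against level the called genes run from below 1 CPM to the most abundant transcripts.

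**Figure D1:**
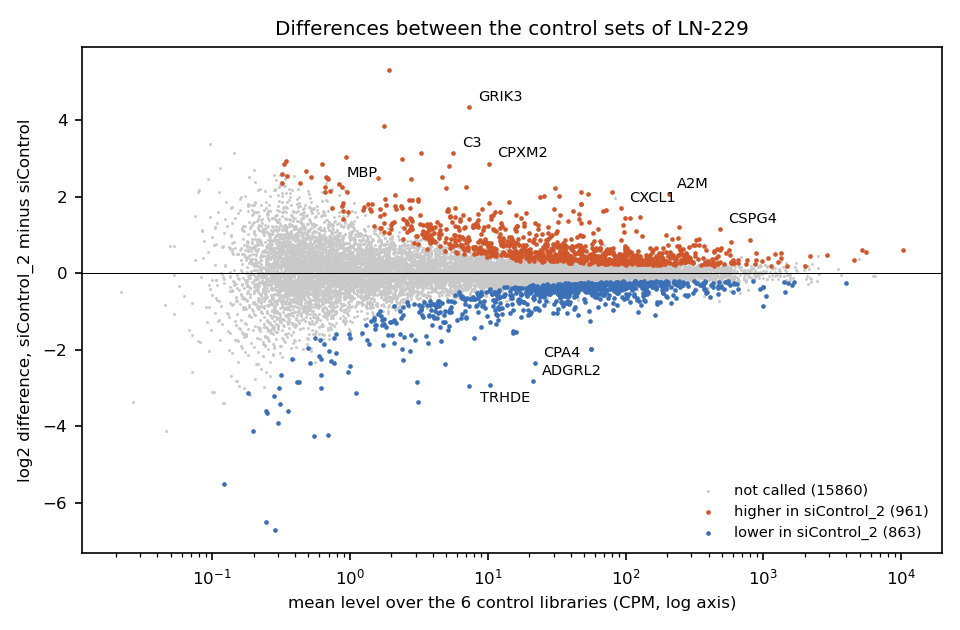
Each point is 1 of the 17684 genes tested; the horizontal axis is its mean CPM over the 6 control libraries (log axis) and the vertical axis the log2 difference, siControl_2 minus siControl. The 961 higher genes (orange) and 863 lower genes (blue) lie on both sides at all levels, and the labelled genes include GRIK3 at 4.34 and TRHDE at -2.94.

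For scale, the knockdown comparisons of the same line in the same fit called 30.9% of the genes for siZFX against siControl, 26.8% for siZNF593 against siControl, 38.2% for the double knockdown against siControl_2 and 40.7% for the double knockdown against siControl. The median absolute log2 difference over all genes was 0.19 between the control sets and 0.31, 0.29, 0.36 and 0.38 in these comparisons, which share control libraries with it. The number of genes called between the control sets changed with the libraries and settings of the fit. With only the 6 control libraries in the fit, 1831 were higher and 1869 lower of 15948 tested (23.2% in either direction). Without replicate 3 of siZFX_siZNF593, a library apart from its group in the principal components, 1665 were higher and 1838 lower (19.2%). Offsets for GC content and length in the same fit gave 1463 higher and 1521 lower. Leaving out 1 control library at a time gave fewer calls, 616 to 754 higher and 564 to 613 lower, with the fewest higher calls without siControl replicate 3 and the fewest lower calls without siControl replicate 1 or 2. On the first principal component of the 6 libraries, with 37.1% of the variance, siControl lay between -33.8 and -26.6 and siControl_2 between 26.7 and 34.1.

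The largest rises and falls are given for called protein-coding genes that averaged 5 CPM or more across the control libraries and whose sets did not overlap. The lack of overlap in these genes was thus fixed by their choice. Some, such as GRIK3 and C3, reached that mean only through the set in which they were high. GRIK3 (ENSG00000163873.9, chr1:36795527-37034129, minus strand), a kainate-type glutamate receptor subunit, measured 0.584, 0.756 and 0.733 CPM in siControl and 17.4, 10.99 and 13.8 CPM in siControl_2. It was 20.2-fold higher in siControl_2 (log2 difference 4.34 ± 0.36 SE, adjusted p = 6.67e-08), and its lowest siControl_2 library lay far above every siControl library. C3 (ENSG00000125730.16, chr19:6677704-6730562, minus strand), the central protein of complement, measured 0.693, 1.100 and 1.68 CPM in siControl and 10.8, 9.08 and 10.4 CPM in siControl_2 (log2 difference 3.14 ± 0.37 SE, adjusted p = 5.28e-06). The gap between the sets was 8.804-fold with no overlap. A2M (ENSG00000175899.14, chr12:9067664-9116229, minus strand), a secreted protease inhibitor, measured 82.2, 84.9 and 71.3 CPM in siControl and 363, 296 and 339 CPM in siControl_2 (log2 difference 2.06 ± 0.11 SE, adjusted p = 2.92e-10). All 3 siControl_2 libraries exceeded the highest siControl library by a wide margin, and the mean ratio was 4.18. CHL1 (ENSG00000134121.9, chr3:196596-409417, plus strand), a neural cell adhesion molecule, measured 16.6, 19.4 and 17.1 CPM in siControl and 77.9, 77.1 and 76.7 CPM in siControl_2 (log2 difference 2.12 ± 0.11 SE, adjusted p = 1.45e-11), so the sets stood apart while the libraries within siControl_2 were nearly equal. DCN (ENSG00000011465.16, chr12:91140484-91183123, minus strand), the matrix proteoglycan decorin, measured 9.34, 11.1 and 8.32 CPM in siControl and 38.3, 37.6 and 38.6 CPM in siControl_2 (log2 difference 1.99 ± 0.13 SE, adjusted p = 6.45e-10). The other 7 of the 12 protein-coding genes of largest rise were CPXM2 (log2 difference 2.87), the bradykinin receptor BDKRB2 (2.79), C1QTNF3 (2.25), the matrix protein MATN2 (2.23), ITIH6 (2.13), FCRLA (2.08) and the basement membrane collagen COL15A1 (2.02). The 12 folds ran from 3.96 to 20.2. Of these genes 8 overlap another annotated gene.

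Among the falls, TRHDE (ENSG00000072657.8, chr12:72087266-72670757, plus strand), the enzyme that degrades thyrotropin-releasing hormone, measured 14.8, 13.03 and 11.3 CPM in siControl and 1.84, 1.96 and 1.28 CPM in siControl_2 (log2 difference -2.94 ± 0.19 SE, adjusted p = 2.48e-10), 7.66-fold lower. CALB2 (ENSG00000172137.18, chr16:71358713-71390438, plus strand), the calcium-binding protein calretinin, measured 17.3, 18.8 and 18.4 CPM in siControl and 1.98, 2.41 and 2.86 CPM in siControl_2 (log2 difference -2.91 ± 0.16 SE, adjusted p = 1.91e-11). In both genes every siControl_2 library lay below every siControl library. ADGRL2 (ENSG00000117114.19, chr1:81306160-81992436, plus strand), an adhesion receptor of the latrophilin family, measured 37.3, 38.5 and 36.9 CPM in siControl and 4.703, 4.97 and 6.24 CPM in siControl_2 (log2 difference -2.83 ± 0.14 SE, adjusted p = 6.35e-12), a 7.09-fold difference. STC2 (ENSG00000113739.10, chr5:173314713-173329503, minus strand), a secreted glycoprotein induced through ATF4 and by hypoxia, measured 84.97, 90.8 and 93.5 CPM in siControl and 22.8, 23.04 and 22.5 CPM in siControl_2 (log2 difference -1.98 ± 0.12 SE, adjusted p = 9.46e-10), again without overlap. Further leading falls were the carboxypeptidase CPA4 (log2 difference -2.35), KLHL4 (-1.69), the presynaptic scaffold PCLO (-1.55), AUTS2 (-1.53), the axon guidance protein NTNG1 (-1.52), FAM83G (-1.49) and PTHLH, the parathyroid hormone-like hormone (-1.40). The 12 folds ran from 2.63 to 7.66, and 5 of the genes overlap another gene. All 24 leading genes were called with each control library left out in turn. Below that level, LRP2, the endocytic receptor megalin, measured 0.657, 0.756 and 0.5605 CPM in siControl and 6.27, 5.47 and 5.98 CPM in siControl_2 (log2 difference 3.15 ± 0.32 SE, adjusted p = 3.48e-07). FLG, the epidermal protein filaggrin, measured 6.17, 5.02 and 5.99 CPM in siControl and 0.8299, 0.251 and 0.562 CPM in siControl_2 (log2 difference -3.36 ± 0.38 SE, adjusted p = 1.42e-06). Both were singled out after their values were seen, and neither pair of sets overlapped. The dot plot of the leading genes by library also places the knockdown groups. For CPA4 the double knockdown had a mean of 16.03 CPM, between the control sets, and siZFX one of 95.2 CPM, above both.

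**Figure D2:**
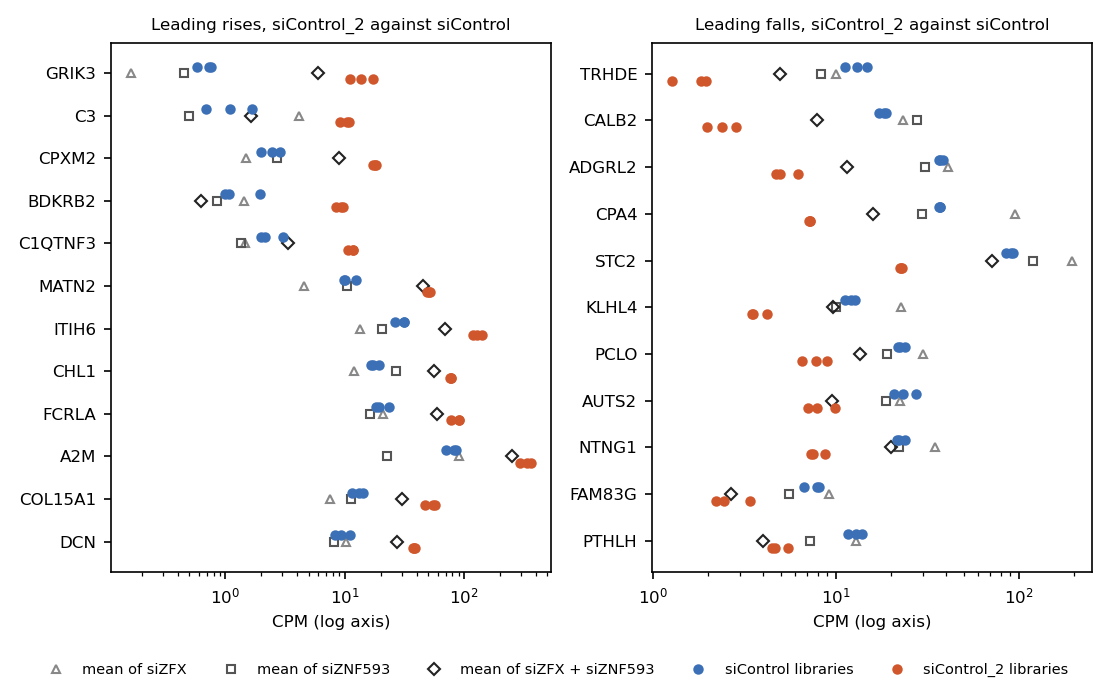
CPM (log axis) of 12 leading rises (left) and 11 leading falls (right); filled circles are single libraries of siControl (blue) and siControl_2 (orange), open symbols are means of 3 libraries of each knockdown group. The genes were chosen for control sets that do not overlap, and GRIK3 shows the widest gap, from a mean of 0.691 to 14.04 CPM.

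Gene lists drawn up for this cell type and treatment were read against the shares over all genes. The chart of called genes per list is ordered by the percent called higher less the percent called lower, with the largest value at the top. The median log2 difference over all genes tested was -0.00045, and 49.9% of all genes had a positive difference. List counts from the fit of the 6 control libraries alone stand against its 1831 higher and 1869 lower of 15948 genes, larger shares than in the fit of all 15 libraries. In what follows a signed value in brackets after a gene is its log2 difference, siControl_2 minus siControl. Where edgeR called 0 genes of a list in one direction, DESeq2 called 0 there too, except for 1 higher G2/M gene. At an unadjusted p below 0.05 edgeR had 0 or 1 genes in those directions, except for 6 higher nuclear respiratory chain genes, 2 higher and 1 lower endothelial markers and 2 lower small RNA pathway genes.

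**Figure D3:**
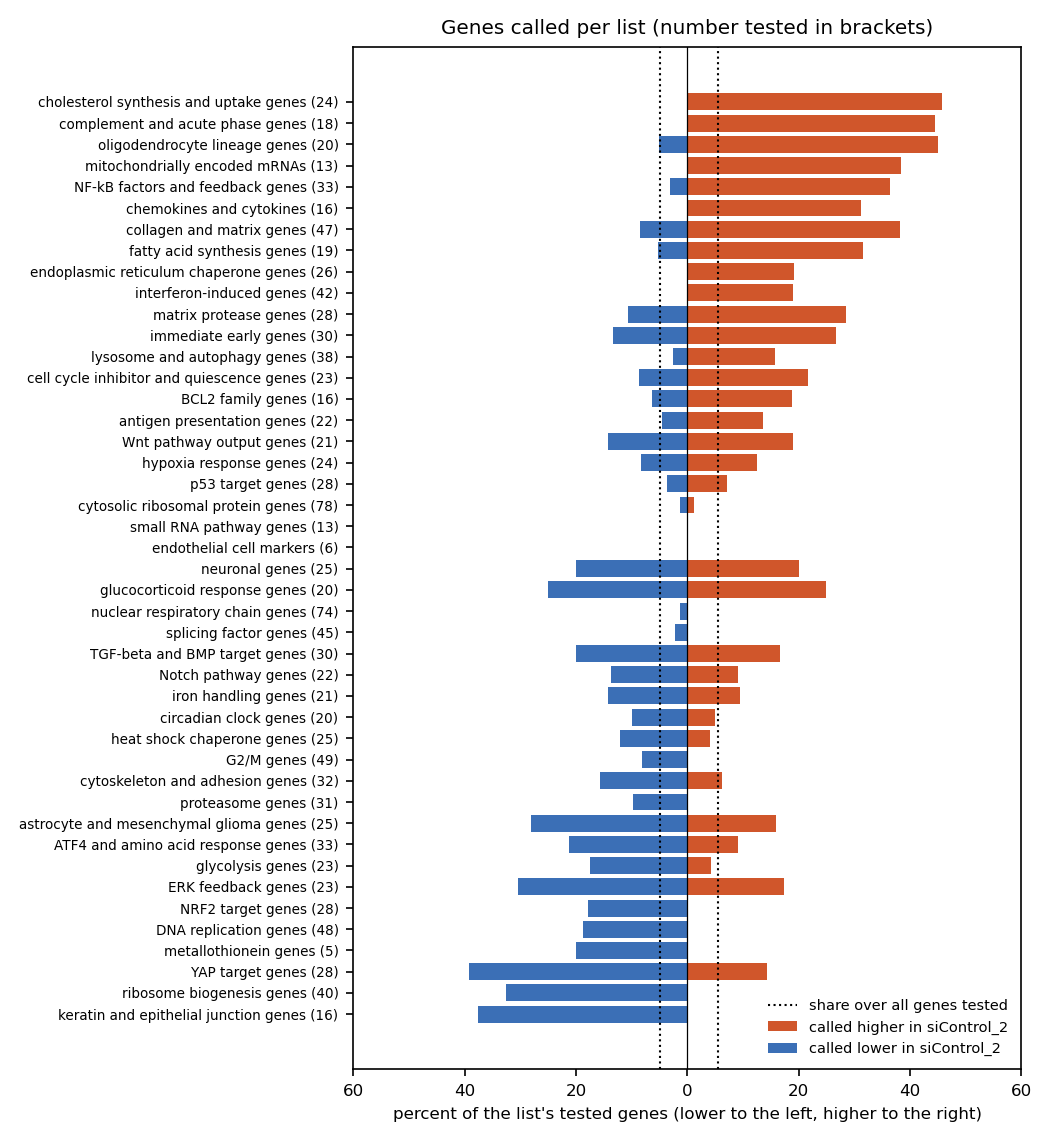
Bars give the percent of each list's tested genes (number in brackets) called higher (orange, to the right) or lower (blue, to the left) in siControl_2; dotted lines mark the shares over all genes tested, 5.43% and 4.88%. Cholesterol, complement and oligodendrocyte lineage genes head the higher calls with 45.8%, 44.4% and 45.0%, and YAP target, keratin and ribosome biogenesis genes the lower calls with 39.3%, 37.5% and 32.5%.

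Lists of inflammatory genes had a larger share of higher calls than all genes. NF-kB is a family of transcription factors held in the cytoplasm by inhibitor proteins; on release it drives chemokines, adhesion molecules and, as feedback, its own inhibitors. Of 33 tested NF-kB factors and feedback genes 12 were higher and 1, the kinase MAP3K14 (-0.66), was lower, with a median log2 difference of 0.28. Promoter windows of RefSeq (GRCh38.p14, 250 bases before the start site and 50 from it, 5′ to 3′ on the gene's strand) are shown for the 5 called genes of the NF-kB and chemokine lists in which the kappaB consensus was found; capitals mark every match to this 10-base motif on either strand.
CXCL1: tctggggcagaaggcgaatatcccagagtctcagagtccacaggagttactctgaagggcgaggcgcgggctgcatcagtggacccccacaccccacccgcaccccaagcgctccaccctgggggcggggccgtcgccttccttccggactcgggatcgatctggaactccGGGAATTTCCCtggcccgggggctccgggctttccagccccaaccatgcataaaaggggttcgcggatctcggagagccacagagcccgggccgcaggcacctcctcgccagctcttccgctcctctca
NFKBIZ: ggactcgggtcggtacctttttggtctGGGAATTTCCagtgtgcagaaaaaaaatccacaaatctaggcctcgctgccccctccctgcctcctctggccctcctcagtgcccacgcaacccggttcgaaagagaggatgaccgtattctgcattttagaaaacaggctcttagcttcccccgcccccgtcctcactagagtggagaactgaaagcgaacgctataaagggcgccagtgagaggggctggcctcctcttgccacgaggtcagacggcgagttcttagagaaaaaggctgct
NFKBIA: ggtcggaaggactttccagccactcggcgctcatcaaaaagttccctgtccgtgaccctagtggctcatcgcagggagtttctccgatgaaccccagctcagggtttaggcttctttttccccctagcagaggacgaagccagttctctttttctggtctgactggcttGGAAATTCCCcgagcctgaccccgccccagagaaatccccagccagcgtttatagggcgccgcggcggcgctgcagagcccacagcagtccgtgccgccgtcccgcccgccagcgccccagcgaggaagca
TNFAIP3: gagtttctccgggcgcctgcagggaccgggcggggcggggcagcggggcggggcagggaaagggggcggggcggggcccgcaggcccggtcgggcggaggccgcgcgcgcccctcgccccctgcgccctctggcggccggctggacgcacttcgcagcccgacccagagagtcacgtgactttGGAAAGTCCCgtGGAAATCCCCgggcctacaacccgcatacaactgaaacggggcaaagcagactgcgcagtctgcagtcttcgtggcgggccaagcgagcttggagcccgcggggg
BIRC3: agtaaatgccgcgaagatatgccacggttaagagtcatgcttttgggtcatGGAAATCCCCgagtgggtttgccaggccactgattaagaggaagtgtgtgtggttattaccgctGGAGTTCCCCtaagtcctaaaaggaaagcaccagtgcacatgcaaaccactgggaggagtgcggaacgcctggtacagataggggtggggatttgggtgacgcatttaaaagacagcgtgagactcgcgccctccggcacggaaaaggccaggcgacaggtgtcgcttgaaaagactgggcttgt
The windows lie at chr4:73869143-73869442 (plus strand), chr3:101827740-101828039 (plus), chr14:35404700-35404999 (minus), chr6:137867009-137867308 (plus) and chr11:102317234-102317533 (plus). Counted from the start site as 0, the matches begin at -79 and -78 in CXCL1, on opposite strands and overlapping, at -223 in NFKBIZ, at -81 in NFKBIA, at -67 and -55 in TNFAIP3, and at -199 and -135 in BIRC3. The motif was found in 10.8% of all 27305 promoter windows, in 9 of the 22 windows found for the 31 chemokine and cytokine genes and in 13 of the 31 found for the 34 NF-kB genes. Among the NF-kB genes called higher it was found in 4 of 11 windows. A match describes these letters only.

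The list of chemokines and cytokines, which includes ligands at the output of this pathway, had 5 of 16 tested genes higher and 0 lower. CXCL1, which attracts neutrophils, measured 41.97, 46.9 and 41.8 CPM in siControl and 139.9, 131 and 153 CPM in siControl_2. It was 3.24-fold higher in siControl_2 (log2 difference 1.70 ± 0.18 SE, adjusted p = 1.03e-05), with no overlap. CXCL8, another neutrophil chemokine of the same cluster on chromosome 4, measured 33.7, 38.2 and 32.98 CPM in siControl and 104, 107 and 117 CPM in siControl_2 (log2 difference 1.64 ± 0.14 SE, adjusted p = 9.38e-08). Its siControl_2 libraries all exceeded 100 CPM, and no siControl library reached 40 CPM. CCL2, the monocyte chemokine, measured 130.4, 143 and 119 CPM in siControl and 275, 220.5 and 282 CPM in siControl_2 (log2 difference 0.99 ± 0.12 SE, adjusted p = 1.14e-05). The others called were the lymphocyte cytokine IL15 (log2 difference 0.96 ± 0.24 SE, adjusted p = 0.0103) and the macrophage growth factor CSF1 (log2 difference 0.53 ± 0.15 SE, adjusted p = 0.037). The list median was 0.45, and 3 genes were called without replicate 1 of either set. CXCL3 and IL34 had log2 differences of 1.21 and 1.74 but were not called (adjusted p = 0.164 and adjusted p = 0.246). In the fit of the 6 control libraries alone, which called 7 genes of the list higher and 1 lower, their adjusted p was 0.00422 and 0.0223, and without siZFX_siZNF593 replicate 3 it was 0.0424 and 0.119. The calls of IL15 and CSF1 were less firm: with 1 control library left out they held in 4 and 1 of 6 fits, IL15 being lost without replicate 1 of either set (highest adjusted p 0.0749) and CSF1 kept only without siControl_2 replicate 3 (adjusted p up to 0.111).

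Among enzymes and surface proteins of the NF-kB list, PTGS2, the inducible cyclooxygenase, measured 8.47, 8.800 and 7.804 CPM in siControl and 24.02, 23.6 and 24.1 CPM in siControl_2 (log2 difference 1.51 ± 0.15 SE, adjusted p = 2.22e-07). ICAM1, the leukocyte adhesion receptor, measured 18.4, 17.8 and 18.7 CPM in siControl and 50.02, 45.2 and 44.8 CPM in siControl_2 (log2 difference 1.35 ± 0.14 SE, adjusted p = 5.14e-07). The folds were 2.86 and 2.55, and the sets overlapped in neither gene. The mitochondrial superoxide dismutase SOD2 measured 19.8, 20.7 and 19.7 CPM in siControl and 42.9, 38.5 and 44.4 CPM in siControl_2 (log2 difference 1.06 ± 0.095 SE, adjusted p = 5.52e-08). Feedback regulators were among the calls as well. NFKBIZ, a nuclear regulator of NF-kB, measured 22.5, 22.04 and 20.2 CPM in siControl and 53.9, 54.1 and 58.03 CPM in siControl_2 (log2 difference 1.36 ± 0.10 SE, adjusted p = 4.69e-09). The apoptosis inhibitor BIRC3 measured 4.56, 5.36 and 4.05 CPM in siControl and 10.9, 11.4 and 10.4 CPM in siControl_2 (log2 difference 1.22 ± 0.21 SE, adjusted p = 0.000228), and TNFAIP2 had a log2 difference of 1.31. NFKBIA, the inhibitor that retains NF-kB in the cytoplasm, measured 33.9, 41.8 and 35.4 CPM in siControl and 58.4, 52.8 and 54.9 CPM in siControl_2 (log2 difference 0.58 ± 0.12 SE, adjusted p = 0.0019), and the ubiquitin-editing inhibitor TNFAIP3 measured 7.45, 8.08 and 8.67 CPM in siControl and 13.97, 12.3 and 12.7 CPM in siControl_2 (log2 difference 0.69 ± 0.15 SE, adjusted p = 0.00315). For each of these genes the lowest siControl_2 library was above the highest siControl library. The subunits RELB (0.62) and NFKB2 (0.41) were called, but with 1 control library left out each held in 3 of 6 fits, with adjusted p up to 0.0774 and 0.0724: RELB was lost without siControl replicate 1 or 2 or siControl_2 replicate 1, NFKB2 without siControl replicate 1 or 3 or siControl_2 replicate 2. Among glucocorticoid response genes, CEBPD, a transcription factor of the acute phase response, measured 21.1, 22.4 and 19.4 CPM in siControl and 79.8, 67.1 and 73.9 CPM in siControl_2 (log2 difference 1.81 ± 0.19 SE, adjusted p = 2.28e-05), a 3.505-fold rise.

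Complement and acute phase genes had 8 of 18 tested higher and 0 lower, with a median of 0.35. Beside C3 and A2M these included the serine protease C1S, which measured 7.300, 8.04 and 6.08 CPM in siControl and 17.2, 17.9 and 18.2 CPM in siControl_2 (log2 difference 1.31 ± 0.14 SE, adjusted p = 8.51e-07), its partner C1R (0.57), and the copper-carrying ferroxidase CP (log2 difference 1.82 ± 0.45 SE, adjusted p = 0.00987), whose call was lost without siControl replicate 1 (adjusted p = 0.0672). The count was 5 to 7 with 1 control library left out, the fewest without siControl replicate 1. LCN2 was not called (log2 difference 1.45, adjusted p = 0.313). Interferon-induced genes had 8 of 42 higher and 0 lower, a median of 0.30 and a positive difference in 35 of 42. IFI6, a mitochondrial protein induced by type I interferon, measured 22.3, 26.02 and 20.9 CPM in siControl and 82.99, 60.97 and 60.3 CPM in siControl_2 (log2 difference 1.56 ± 0.18 SE, adjusted p = 2.09e-05), and the virus-tethering protein BST2 measured 5.51, 4.503 and 4.05 CPM in siControl and 15.4, 12.04 and 9.31 CPM in siControl_2 (log2 difference 1.39 ± 0.25 SE, adjusted p = 0.00051). In both genes the first siControl_2 library was the highest of all 6 and the sets did not overlap. The RNA sensor IFIH1 was also higher (0.83). In the fit of the 6 control libraries alone 13 interferon-induced genes were higher, and with 1 control library left out 5 to 8, the fewest without siControl replicate 2. Antigen presentation genes, which interferon also induces, had 3 of 22 higher and 1 lower, with a median of 0.095 and none beyond 1.5-fold. The higher calls were 0 without siControl replicate 1, 2 without siControl_2 replicate 3 and 1 without any other control library. Among them B2M, the light chain of MHC class I, had a log2 difference of 0.34 (adjusted p = 0.00576), lost without siControl replicate 1 (adjusted p = 0.0527), and the class II regulator CIITA one of -0.39 (adjusted p = 0.00285).

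Markers of immune cells, a source of many of these mediators in tissue, were near 0 in this line. Of 16 markers 3 were tested and 0 called. CD3D, CD3G, CD2, FCGR3A, AIF1 and TYROBP had 0 counts in all 6 control libraries, and the summed level of the list was 1.13 to 2.54 CPM in siControl and 1.02 to 3.09 CPM in siControl_2. Markers of endothelial cells summed to 4.74 to 6.04 CPM in siControl and 4.79 to 5.52 CPM in siControl_2, with 6 tested and 0 called by edgeR at an adjusted p of 0.05. KDR had the widest difference, 2.10 (adjusted p = 0.0955), at levels below 1 CPM.

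Lists of sterol and fatty acid synthesis genes had calls almost wholly in the higher direction. Cholesterol synthesis is driven by SREBF2, which is released from the endoplasmic reticulum when sterols run low and is retained there by INSIG1. Of 24 tested cholesterol genes 11 were higher and 0 lower (45.8% against 5.43% of all genes), the median was 0.24, and 20 of 24 differences were positive. INSIG1 measured 140.3, 151 and 147 CPM in siControl and 225, 229.5 and 234 CPM in siControl_2 (log2 difference 0.65 ± 0.079 SE, adjusted p = 3.91e-06). The farnesyl diphosphate synthase FDPS had a log2 difference of 0.50, the sterol carrier STARD4 0.47, SREBF2 itself 0.40 and the squalene epoxidase SQLE 0.34. All of these sets were free of overlap, but the differences were small, and INSIG1 alone passed 1.5-fold. The list held 7 or 8 higher genes in the fits without 1 control library, 8 of them without siControl replicate 1 or siControl_2 replicate 2, and 16 in the fit of the 6 control libraries alone. The sterol regulatory element (TCACNCCAC, either strand) was found in 1 of 18 promoter windows of the list, that of SREBF2 at -133, and in 1.15% of all windows.

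Among fatty acid genes, the desaturases had the leading rises. FADS2, which starts the synthesis of long polyunsaturated fatty acids, measured 148, 147 and 145 CPM in siControl and 358, 327 and 332 CPM in siControl_2 (log2 difference 1.21 ± 0.076 SE, adjusted p = 2.08e-10). SCD, the stearoyl-CoA desaturase, measured 589, 564 and 551 CPM in siControl and 1035, 1009.8 and 1041 CPM in siControl_2 (log2 difference 0.86 ± 0.058 SE, adjusted p = 6.45e-10). Both were without overlap, 2.31-fold and 1.81-fold higher in siControl_2. The related SCD5 was higher by 0.72, and the acyl-CoA synthetase ACSL1 was lower at -0.73. In all 6 of 19 fatty acid synthesis genes were higher and 1 lower, with a median of 0.19. In the fit of the 6 control libraries alone 11 were higher and 2 lower.

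In the list of the oligodendrocyte lineage the calls included surface and myelin genes, while the lineage factor SOX10 was not called. This lineage runs from progenitors marked by PDGFRA and the proteoglycan CSPG4 to myelinating cells that express MBP, MOG and MAG, and SOX10 and OLIG2 are expressed along it. Of 20 tested genes 9 were higher and 1, the myelin regulator MYRF (-0.54), was lower; MYRF kept its call in 2 of the 6 fits, those without siControl replicate 2 or siControl_2 replicate 3 (adjusted p up to 0.109). The median of 0.56 was the largest of the 46 lists. CSPG4 measured 309, 297 and 296 CPM in siControl and 723, 669.9 and 603 CPM in siControl_2 (log2 difference 1.15 ± 0.14 SE, adjusted p = 8.07e-05), 2.21-fold higher. PTPRZ1, a receptor phosphatase of glial progenitors and glioma, measured 243, 249.7 and 230.4 CPM in siControl and 429, 448 and 459 CPM in siControl_2 (log2 difference 0.89 ± 0.064 SE, adjusted p = 2.04e-09). S100B, a glial calcium-binding protein, measured 357, 381 and 348 CPM in siControl and 591, 522 and 581 CPM in siControl_2 (log2 difference 0.64 ± 0.083 SE, adjusted p = 9.36e-06). None of these sets overlapped. MAG, an adhesion protein of myelin, measured 19.6, 18.9 and 19.8 CPM in siControl and 39.7, 30.6 and 28.2 CPM in siControl_2 (log2 difference 0.76 ± 0.16 SE, adjusted p = 0.00215), again without overlap. MBP and MOG had larger differences at levels near 1 CPM. MBP measured 0.146, 0.241 and 0.431 CPM in siControl and 1.57, 0.954 and 1.64 CPM in siControl_2 (log2 difference 2.35 ± 0.59 SE, adjusted p = 0.0118), and MOG 0.839, 1.03 and 0.776 CPM in siControl and 1.52, 1.56 and 3.17 CPM in siControl_2 (log2 difference 1.22 ± 0.36 SE, adjusted p = 0.0302). Their calls each held in 2 of the 6 fits without 1 control library, with adjusted p up to 0.0878 and 0.259; MBP kept it without siControl replicate 3 or siControl_2 replicate 2, and MOG without siControl_2 replicate 1 or 2. SOX10 measured 1293, 1259.7 and 1273 CPM in siControl and 1362, 1306 and 1331 CPM in siControl_2 (log2 difference 0.064 ± 0.09 SE, adjusted p = 0.741), and PDGFRA 14.6, 12.6 and 13.1 CPM in siControl and 14.5, 13.6 and 13.04 CPM in siControl_2 (log2 difference 0.031 ± 0.12 SE, adjusted p = 0.926). The CSPG4 call was thus not shared by PDGFRA, the other progenitor marker. OLIG2 measured 19.96, 22.9 and 19.96 CPM in siControl and 32.8, 27.8 and 27.05 CPM in siControl_2 (log2 difference 0.48 ± 0.12 SE, adjusted p = 0.00901) and was called in 3 of those 6 fits (lost without siControl replicate 1 or 3 or siControl_2 replicate 1, adjusted p up to 0.0761). In a bulk library more cells of one state and more RNA per cell cannot be told apart.

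Astrocyte and mesenchymal glioma genes were called in both directions, 4 of 25 higher and 7 lower, with a median of -0.10. The higher calls were 1 or 2 without siControl replicate 1 or 3 or siControl_2 replicate 1 or 3. NES, an intermediate filament of neural progenitors, measured 1103, 1089.7 and 1064 CPM in siControl and 829, 843 and 773 CPM in siControl_2 (log2 difference -0.41 ± 0.092 SE, adjusted p = 0.00463). EGFR, the growth factor receptor often amplified in glioma, measured 123, 121 and 124 CPM in siControl and 76.4, 82.2 and 85.7 CPM in siControl_2 (log2 difference -0.59 ± 0.072 SE, adjusted p = 4.46e-06). Both were lower in all 3 siControl_2 libraries. The receptor kinase MET was lower at -0.70 (adjusted p = 9.12e-06), and FABP7, a fatty acid binding protein of radial glia, measured 62.3, 66.6 and 57.00 CPM in siControl and 143, 117 and 134 CPM in siControl_2 (log2 difference 1.08 ± 0.092 SE, adjusted p = 2.65e-08). GFAP measured 2.99, 1.89 and 2.98 CPM in siControl and 1.43, 2.06 and 1.53 CPM in siControl_2, with overlap between the sets and no call (adjusted p = 0.137). The neuronal list had 5 of 25 higher, or 2 to 3 in the fits without 1 control library other than siControl_2 replicate 2, and 5 lower, with a median of -0.13 that was 0.062 in the fit of the 6 control libraries alone. NPTX2, a secreted synaptic pentraxin, measured 9.85, 10.2 and 8.97 CPM in siControl and 24.3, 19.2 and 21.5 CPM in siControl_2 (log2 difference 1.16 ± 0.14 SE, adjusted p = 5.80e-06) without overlap, and CALB2 above is among the lower members. NEFL, a neurofilament subunit, was higher by 1.31, lost without siControl replicate 2 or siControl_2 replicate 3 (adjusted p up to 0.0621). Keratin and epithelial junction genes had 0 of 16 higher and 6 lower, with a median of -0.41. KRT81, a hair keratin, measured 9.27, 8.83 and 6.597 CPM in siControl and 2.81, 0.803 and 1.12 CPM in siControl_2 (log2 difference -2.36 ± 0.35 SE, adjusted p = 0.000128). KRT80 measured 24.7, 24.4 and 22.98 CPM in siControl and 12.4, 10.2 and 10.1 CPM in siControl_2 (log2 difference -1.14 ± 0.13 SE, adjusted p = 2.39e-06), and KRT14, a basal epithelial keratin, 9.16, 10.2 and 5.69 CPM in siControl and 3.83, 3.61 and 3.37 CPM in siControl_2 (log2 difference -1.22 ± 0.21 SE, adjusted p = 0.000343). The sets did not overlap for any of these 3 keratins. Other members called were KRT18 (-0.50) and the desmosome genes DSC2 (-0.53) and DSG2 (-0.36). DSC2 was lost without siControl replicate 1 (adjusted p = 0.0949) and DSG2 without siControl replicate 2 (adjusted p = 0.0606). The summed level of the list was 407 to 429 CPM in siControl and 322 to 342 CPM in siControl_2.

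Collagens and other matrix genes held the largest number of calls of any list, 18 of 47 higher and 4 lower, with a median of 0.25. COL3A1, a fibrillar collagen, measured 1.35, 1.100 and 1.68 CPM in siControl and 7.65, 7.48 and 8.64 CPM in siControl_2 (log2 difference 2.53 ± 0.31 SE, adjusted p = 3.89e-06), 5.77-fold higher. COL5A2, which joins collagen fibrils, measured 18.7, 18.98 and 14.1 CPM in siControl and 45.6, 52.8 and 50.3 CPM in siControl_2 (log2 difference 1.52 ± 0.11 SE, adjusted p = 2.64e-09), and POSTN, the matricellular protein periostin, measured 6.57, 6.36 and 5.17 CPM in siControl and 19.4, 16.3 and 19.4 CPM in siControl_2 (log2 difference 1.60 ± 0.17 SE, adjusted p = 5.88e-07). No siControl library reached the lowest siControl_2 library in these genes. The proteoglycan BGN measured 8.98, 11.04 and 9.44 CPM in siControl and 22.6, 21.7 and 24.6 CPM in siControl_2 (log2 difference 1.23 ± 0.13 SE, adjusted p = 4.64e-07), and the laminin chain LAMA5 was higher by 1.25 (adjusted p = 0.00112). The 4 lower genes included THBS1, a thrombospondin that activates latent TGF-beta, which measured 1314, 1280.0 and 1272 CPM in siControl and 644, 722 and 749 CPM in siControl_2 (log2 difference -0.87 ± 0.068 SE, adjusted p = 5.28e-09), and COL6A3, a chain of collagen VI, which measured 6.86, 9.18 and 6.64 CPM in siControl and 2.86, 2.91 and 2.97 CPM in siControl_2 (log2 difference -1.38 ± 0.21 SE, adjusted p = 6.58e-05). The other lower members were COL5A1 (-0.43) and FBN2 (-0.34). COL5A1 was called in 1 of the 6 fits without 1 control library, that without siControl_2 replicate 2 (adjusted p up to 0.0760), and FBN2 in 5 (0.0612 without siControl_2 replicate 1). Without siControl_2 replicate 1 the list had 2 lower genes. The summed level of the list was 21974 to 22779 CPM in siControl and 25378 to 26011 CPM in siControl_2. LOXL1 had a log2 difference of 1.98 without a call (adjusted p = 0.137). Of 28 matrix protease genes 8 were higher and 3 lower, among them the aggrecanase ADAMTS4, which measured 4.93, 3.68 and 3.75 CPM in siControl and 10.2, 7.53 and 10.7 CPM in siControl_2 (log2 difference 1.20 ± 0.21 SE, adjusted p = 0.000353).

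Targets of YAP, the coactivator that binds TEAD factors when cells spread and leaves the nucleus in dense culture, were called lower more often than higher. Of 28 tested genes 11 were lower and 4 higher, with a median of -0.20 and a negative difference in 22 of 28. The promoter window of CCN2 (RefSeq, GRCh38.p14, chr6:131951323-131951622, minus strand) is shown because it was the only one of 9 windows of lower members in which the TEAD motif GGAATG was found; capitals mark its 3 matches, at -169, -104 and -95.
CCN2: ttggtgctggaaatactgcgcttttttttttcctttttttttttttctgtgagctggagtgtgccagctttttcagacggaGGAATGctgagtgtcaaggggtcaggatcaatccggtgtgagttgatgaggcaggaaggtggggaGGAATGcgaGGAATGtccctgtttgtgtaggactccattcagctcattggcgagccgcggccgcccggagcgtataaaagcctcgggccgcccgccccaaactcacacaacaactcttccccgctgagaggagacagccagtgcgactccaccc
The motif, searched on both strands, was found in 8 of 19 windows of the list and in 14.1% of all windows. CCN2, a secreted matricellular protein, measured 146, 161 and 155 CPM in siControl and 111, 117 and 124 CPM in siControl_2 (log2 difference -0.40 ± 0.09 SE, adjusted p = 0.00476). CCN1, its relative, measured 149, 155 and 148 CPM in siControl and 89.2, 96.5 and 92.1 CPM in siControl_2 (log2 difference -0.70 ± 0.11 SE, adjusted p = 0.000132). CRIM1, a transmembrane BMP-binding protein, measured 205, 223 and 214 CPM in siControl and 117, 125 and 129 CPM in siControl_2 (log2 difference -0.79 ± 0.064 SE, adjusted p = 8.93e-09). In all 3 genes the highest siControl_2 library was below the lowest siControl library, with folds of 1.32, 1.63 and 1.73. The coagulation initiator F3 (-0.66), the junction protein AJUBA (-0.65) and the membrane repair protein MYOF (-0.64) were lower as well. The 4 higher members were 1 or 2 without any 1 control library other than siControl_2 replicate 2. They included YAP1 (0.25) and its paralog WWTR1 (0.25). YAP1 lost its call in all 6 fits without 1 control library (adjusted p 0.0634 to 0.164), and WWTR1 in all but that without siControl_2 replicate 1 (adjusted p up to 0.0985). TGF-beta and BMP targets, which share CCN2 with the YAP targets, had 5 of 30 higher, 3 without siControl replicate 1 or 3 or siControl_2 replicate 3, and 6 lower. FST, the activin antagonist follistatin, measured 50.5, 54.2 and 53.5 CPM in siControl and 159, 138 and 135 CPM in siControl_2 (log2 difference 1.45 ± 0.11 SE, adjusted p = 3.52e-09). Cytoskeleton and adhesion genes had 2 of 32 higher and 5 lower, 3 without replicate 1 of either set.

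**Figure D4:**
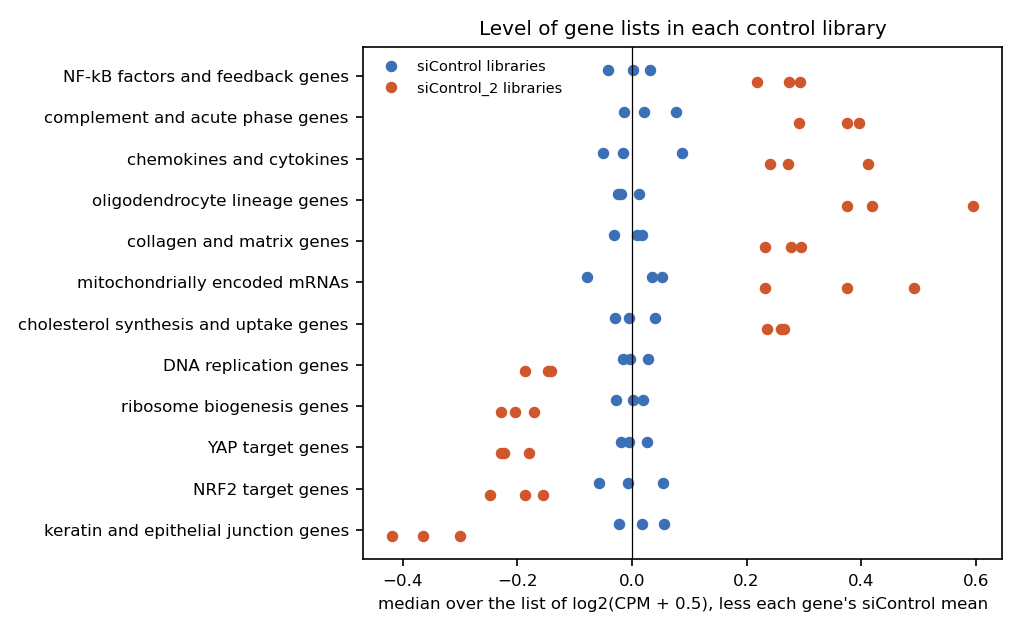
Each point is 1 control library; the horizontal axis is the median over a list's tested genes of log2(CPM + 0.5), less each gene's mean in siControl, so the siControl libraries (blue) lie near 0. The siControl_2 libraries (orange) lie above them for the upper 7 lists and below them for the lower 5, without overlap.

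In 3 lists tied to cell growth edgeR called genes in the lower direction only in the fit of all 15 libraries. Of 40 ribosome biogenesis genes 0 were higher and 13 lower, with a median of -0.19 and a negative difference in 37. NPM1, the nucleolar chaperone nucleophosmin, measured 1117, 1165 and 1070.0 CPM in siControl and 893, 818 and 896 CPM in siControl_2 (log2 difference -0.36 ± 0.08 SE, adjusted p = 0.00384). NOP16 measured 42.2, 44.4 and 37.4 CPM in siControl and 29.3, 27.9 and 28.5 CPM in siControl_2 (log2 difference -0.54 ± 0.089 SE, adjusted p = 0.000209), and RRP1 48.98, 49.1 and 49.2 CPM in siControl and 39.4, 35.1 and 33.7 CPM in siControl_2 (log2 difference -0.44 ± 0.10 SE, adjusted p = 0.00577); both act in assembly of the large ribosomal subunit. The differences were 1.29-fold to 1.45-fold, and no siControl_2 library reached the siControl range. Of 48 DNA replication genes 0 were higher and 9 lower, with a median of -0.17. RRM2, a subunit of ribonucleotide reductase, measured 181, 182 and 171 CPM in siControl and 137, 134 and 148 CPM in siControl_2 (log2 difference -0.35 ± 0.082 SE, adjusted p = 0.00558). TYMS, the thymidylate synthase, was lower (-0.46) and lost that call without replicate 3 of either set (adjusted p up to 0.0691). Of 49 G2/M genes 0 were higher and 4 lower, with a median of -0.11. These are 8.16% of the list against 4.88% of all genes, a share that was larger among genes of at least 5 CPM. The calls were the factor FOXM1 (log2 difference -0.33 ± 0.085 SE, adjusted p = 0.0127), the kinase PLK1 (log2 difference -0.32 ± 0.066 SE, adjusted p = 0.00241) and 2 more. The phosphatase CDC25A (-0.33) and the centromere protein CENPF (-0.24) were called in 1 and 0 of the 6 fits without 1 control library (CDC25A without siControl_2 replicate 1; adjusted p up to 0.160 and 0.200). These counts rose most in the fit of the 6 control libraries alone, to 24, 23 and 16 lower genes, with 0, 2 and 1 higher. The lower counts fell to 7 or 8, 2 to 5, and 2 or 3 in the 6 fits without 1 control library. Over all genes those fits called 564 to 613 lower of 18293 to 18372 tested, also fewer than the 863 of the fit of all 15 libraries. Among cell cycle inhibitors and quiescence genes 5 of 23 were higher, 3 without any 1 control library other than siControl_2 replicate 2, and 2 lower. TXNIP, which restrains glucose uptake, measured 32.7, 34.9 and 33.5 CPM in siControl and 58.6, 53.6 and 57.1 CPM in siControl_2 (log2 difference 0.74 ± 0.084 SE, adjusted p = 1.53e-06). Cytosolic ribosomal protein genes had 1 of 78 higher and 1 lower (median 0.021), proteasome genes 0 of 31 higher and 3 lower (median -0.11), and splicing factor genes 0 of 45 higher and 1 lower (median -0.072), shares below or near those of all genes apart from the 9.68% of the proteasome list. Leaving out 1 control library changed some of these counts. The ribosomal protein list had 0 higher without siControl replicate 1 or 3 or siControl_2 replicate 1 or 3 and 4 lower without siControl_2 replicate 1, and the splicing list had 0 lower without siControl replicate 1 or 2 or siControl_2 replicate 2 or 3. With the 6 control libraries alone the proteasome and splicing lists had 11 and 13 lower and 0 and 1 higher, and the ribosomal protein list had 7 each way. That fit called 1831 higher and 1869 lower of all 15948 genes it tested.

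Stress response lists differed in direction. The factor NRF2 drives glutathione synthesis and thiol repair. Of its 28 tested targets 0 were higher and 5 lower, with a median of -0.20. In the fit of the 6 control libraries alone 1 was higher and 11 were lower. The cystine importer SLC7A11 measured 133, 146 and 131 CPM in siControl and 72.5, 91.3 and 77.3 CPM in siControl_2 (log2 difference -0.76 ± 0.087 SE, adjusted p = 1.85e-06). GCLM, a subunit of the glutathione-synthesising ligase, measured 111, 119 and 110.2 CPM in siControl and 72.5, 71.8 and 77.7 CPM in siControl_2 (log2 difference -0.62 ± 0.076 SE, adjusted p = 5.01e-06), and the thioredoxin reductase TXNRD1 431, 465 and 404 CPM in siControl and 328, 330.4 and 321 CPM in siControl_2 (log2 difference -0.41 ± 0.063 SE, adjusted p = 7.92e-05). The sets did not overlap in these 3 genes. The others called were GCLC (-0.47) and the exporter ABCC3 (-0.39). SLC7A11 also belongs to the ATF4 and amino acid response genes, of which 3 of 33 were higher and 7 lower (median -0.076), 4 without siControl_2 replicate 3. SLC2A1, the main glucose importer, measured 259, 291 and 262 CPM in siControl and 149.7, 165 and 163 CPM in siControl_2 (log2 difference -0.77 ± 0.11 SE, adjusted p = 7.11e-05), and glycolysis genes had 1 of 23 higher and 4 lower (median -0.056). The higher count was 0 without siControl replicate 2 or 3 or siControl_2 replicate 1 or 2. Hypoxia response genes had 3 of 24 higher, 1 without siControl replicate 3 or siControl_2 replicate 1 or 3, and 2 lower (median 0.047), the lower being STC2 and the lipase inhibitor ANGPTL4 (-0.99). Heat shock chaperones had 1 of 25 higher, the small chaperone CRYAB (log2 difference 1.33 ± 0.20 SE, adjusted p = 4.82e-05), and 3 lower (median -0.13). In the fit of the 6 control libraries 2 were higher and 9 lower, and without replicate 2 of either set 1 was lower. Endoplasmic reticulum chaperone genes had 5 of 26 higher and 0 lower (median 0.13), 3 or 4 without 1 control library, the 4 without siControl_2 replicate 3. XBP1, a factor of the unfolded protein response, measured 101, 116 and 102 CPM in siControl and 142, 125 and 139.8 CPM in siControl_2 (log2 difference 0.35 ± 0.081 SE, adjusted p = 0.00516), and DNAJB9 had a log2 difference of 0.55. HSPA5 (0.20) and CALR (0.20) of this list were called in 0 and 1 of the 6 fits without 1 control library, CALR without siControl_2 replicate 3 (adjusted p up to 0.224 and 0.254). The metallothionein list, which also holds the regulator MTF1 and the zinc exporter SLC30A1, had 1 of 5 lower, SLC30A1 (-0.56). No metallothionein was called, and MT2A and MT1X were among those tested. Iron handling genes had 2 of 21 higher, 1 without any 1 siControl library or siControl_2 replicate 3, and 3 lower.

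Of 30 tested immediate early genes, 8 were higher and 4 lower (median 0.020). The higher calls were 5 without siControl replicate 3 or siControl_2 replicate 1, and the lower calls 2 without any 1 control library other than siControl_2 replicate 3. The nuclear receptors of the NR4A family were the leading rises: NR4A1 measured 26.3, 27.3 and 27.7 CPM in siControl and 68.4, 66.1 and 68.8 CPM in siControl_2 (log2 difference 1.32 ± 0.14 SE, adjusted p = 2.33e-06), and NR4A2 39.2, 36.5 and 38.6 CPM in siControl and 80.6, 76.4 and 79.7 CPM in siControl_2 (log2 difference 1.05 ± 0.085 SE, adjusted p = 9.76e-09). The folds were 2.500 and 2.07, without overlap. NR4A3 was higher by 1.15 at 1.20 to 4.33 CPM and was called in 2 of 6 fits without 1 control library, those without siControl replicate 1 or siControl_2 replicate 3 (adjusted p up to 0.142). EGR1, a zinc finger factor induced by ERK, went the other way with 221, 218 and 224 CPM in siControl and 108, 94.1 and 111 CPM in siControl_2 (log2 difference -1.08 ± 0.25 SE, adjusted p = 0.0183). Its libraries stood clearly apart, but the call held in 2 of the 6 fits, those without siControl replicate 2 or siControl_2 replicate 3 (adjusted p 0.0465 to 0.0683), while in the fit of the 6 control libraries alone its adjusted p was 1.39e-14. ERK feedback genes had 4 of 23 higher and 7 lower (median -0.12), 4 without siControl_2 replicate 1. SPRY1, an inhibitor of receptor signalling, measured 4.12, 3.71 and 3.75 CPM in siControl and 6.73, 8.38 and 10.4 CPM in siControl_2 (log2 difference 1.13 ± 0.21 SE, adjusted p = 0.000723), and HMGA2, a chromatin architectural protein, measured 71.9, 71.1 and 73.1 CPM in siControl and 34.8, 37.9 and 36.8 CPM in siControl_2 (log2 difference -0.98 ± 0.076 SE, adjusted p = 5.28e-09). HMGA2 was lower in all 3 siControl_2 libraries, 1.97-fold in the mean.

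Signalling lists with calls in both directions were Wnt output genes (4 of 21 higher, 3 lower), Notch pathway genes (2 of 22 higher, 1 without siControl replicate 2, and 3 lower), glucocorticoid response genes (5 of 20 each way, with 2 or 3 lower in the 6 fits without 1 control library) and BCL2 family genes (3 of 16 higher and 1 lower, the latter 2 without siControl_2 replicate 2). The Wnt antagonist DKK1 measured 74.3, 89.1 and 81.9 CPM in siControl and 43.4, 39.04 and 49.4 CPM in siControl_2 (log2 difference -0.90 ± 0.12 SE, adjusted p = 2.23e-05), and the feedback inhibitor APCDD1 was higher by 1.20 (adjusted p = 0.00293). NKD1, another Wnt inhibitor, was higher by 2.26 at 0.259 to 1.89 CPM. The Notch ligand JAG1 measured 102, 112 and 110.4 CPM in siControl and 52.7, 59.02 and 53.6 CPM in siControl_2 (log2 difference -0.97 ± 0.075 SE, adjusted p = 4.69e-09), with no overlap. BMF, a proapoptotic member of the BCL2 family, measured 3.98, 4.57 and 4.01 CPM in siControl and 7.05, 6.72 and 8.49 CPM in siControl_2 (log2 difference 0.82 ± 0.15 SE, adjusted p = 0.00052). p53 targets had 2 of 28 higher, 1 without any 1 control library other than siControl_2 replicate 2, and 1 lower. Circadian clock genes had 1 of 20 higher and 2 lower. The higher count was 0 without siControl replicate 2 or 3 or siControl_2 replicate 1 or 3, and the lower count was 0 without replicate 1 of either set and 1 without siControl replicate 2 or 3. Lysosome and autophagy genes had 6 of 38 higher and 1 lower, the latter 0 without siControl replicate 2 or 3 or siControl_2 replicate 1 or 3, with the protease CTSH at 0.88 (adjusted p = 0.00166). None of 13 small RNA pathway genes, which include the Argonaute proteins that carry siRNA, was called by edgeR, and their median was -0.081. In the fit of the 6 control libraries alone 2 of them were lower, against 1869 of all 15948 genes tested there.

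Of 13 mitochondrially encoded mRNAs 5 were higher and 0 lower, or 8 and 2 both in the fit of the 6 control libraries and without siZFX_siZNF593 replicate 3. The mitochondrial share of counts was 3.19% to 3.60% in siControl and 4.32% to 5.01% in siControl_2, a difference of 1.14 percentage points (exact permutation test, two-sided, p = 0.1, the smallest possible). MT-CO1, a cytochrome c oxidase subunit and the most abundant gene of the libraries by counts, measured 8552, 7780.1 and 8137 CPM in siControl and 12017, 11587 and 13629 CPM in siControl_2 (log2 difference 0.61 ± 0.081 SE, adjusted p = 1.68e-05). MT-CO2 (0.60), MT-ND4 (0.56), MT-ND6 (0.52) and MT-ATP6 (0.46) were the others called, and the median was 0.38. MT-ATP6 lost its call without siControl replicate 2 (adjusted p = 0.0559). MT-ATP8, which overlaps MT-ATP6, had a log2 difference of -0.69 (adjusted p = 0.361). Its adjusted p was 0.00727 in the fit of the 6 control libraries and 0.000255 without siZFX_siZNF593 replicate 3. The nuclear genes of the respiratory chain did not show this in the fit of all 15 libraries: 0 of 74 were higher and 1 lower, with a median of 0.015. They had 5 higher and 3 lower in the fit of the 6 control libraries, and 5 and 1 without siZFX_siZNF593 replicate 3. The lower calls were 2 without siControl_2 replicate 1, 1 without siControl replicate 3 and 0 without any other control library. EEF1A1 and ACTB, next in abundance, had log2 differences of -0.065 and -0.064 and were not called. The share of reads mapped to several places was 2.20% to 2.64% in siControl and 2.69% to 3.29% in siControl_2 (p = 0.1 by the same exact test). Reads that met no gene made 5.49 ± 0.779% and 5.85 ± 0.998% (SD, n = 3; exact permutation test p = 0.7), and the sets overlapped. The part of these shares in the gene differences was not tested. With the mitochondrial genes removed the calls were 971 higher and 849 lower.

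By chromosome, the median log2 difference of nuclear genes ran from -0.093 on chromosome 16 to 0.092 on chromosome 7, against 0.32 for the mitochondrial genome. Chromosome 7 had 85 genes higher and 31 lower of 898 tested, and chromosome 16 had 12 higher and 40 lower of 835. Over all genes tested 5.43% were higher and 4.88% lower. The lower calls of chromosome 16 were near the share of all genes, and only its higher calls were fewer. The 3 siControl_2 libraries gave medians of 0.071 to 0.081 on chromosome 7 and of -0.11 to -0.069 on chromosome 16, so each library of that set showed both shifts. Chromosomes 5 (83 higher, 46 lower of 879), 3 (76 and 34 of 978) and 15 (41 and 13 of 601) were among the others with more higher than lower calls. Chromosomes 2 (60 and 94 of 1190) and 4 (30 and 59 of 632) were among those with fewer. Genes split in 3 by GC content had medians of -0.014, 0.019 and -0.0079, and by exon length of 0.015, -0.0013 and -0.011, smaller than the shifts of the chromosomes named here.

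**Figure D5:**
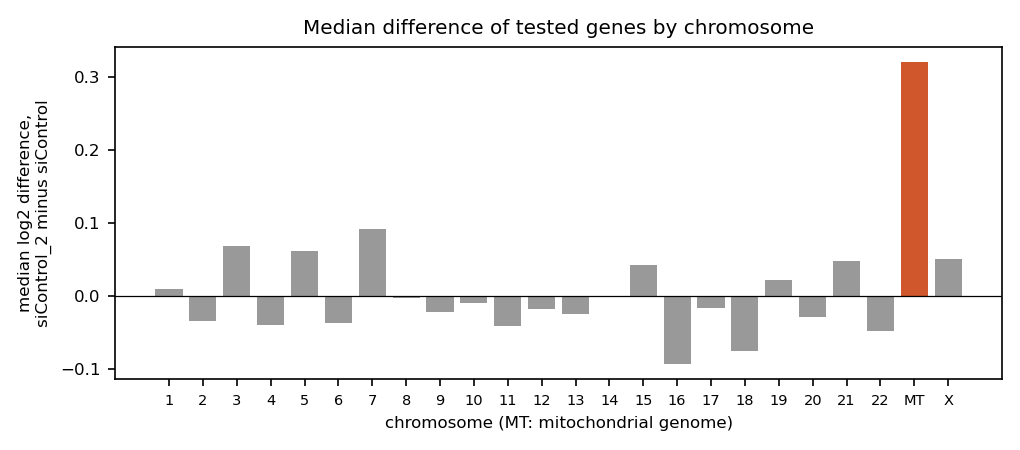
Bars give the median log2 difference, siControl_2 minus siControl, over the tested genes of each chromosome, with the mitochondrial genome (MT) in orange. Nuclear medians lie between -0.093 (chromosome 16) and 0.092 (chromosome 7), and MT stands at 0.32.

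Protein-coding genes made up 900 of the 961 higher and 809 of the 863 lower genes, against 13532 of all 17684 genes tested. MIR3142HG, the host transcript of a microRNA cluster, measured 9.23, 9.87 and 11.2 CPM in siControl and 39.7, 38.99 and 44.8 CPM in siControl_2 (log2 difference 2.03 ± 0.17 SE, adjusted p = 9.83e-08), a 4.08-fold rise. H19, the imprinted long non-coding RNA, measured 6.898, 7.43 and 5.82 CPM in siControl and 16.1, 14.5 and 14.6 CPM in siControl_2 (log2 difference 1.16 ± 0.17 SE, adjusted p = 3.27e-05). OLMALINC (1.17) and PROX1-AS1 (1.18) were the other leading non-coding rises, and all 4 overlap another gene. The falls were smaller. LINC00346 measured 15.6, 14.9 and 14.1 CPM in siControl and 9.22, 9.89 and 9.71 CPM in siControl_2 (log2 difference -0.63 ± 0.11 SE, adjusted p = 0.000418), and the others were AC079062.1 (-0.86), AL365203.2 (-0.73) and AL136164.4 (-0.64), the last called in 1 of 6 fits without 1 control library, that without siControl_2 replicate 2 (adjusted p up to 0.261).

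A few genes were counted in one set only. With at least 3 counts in each library of one set and 0 in the other, 5 genes were seen in siControl_2 alone and 18 in siControl alone. The rule uses raw counts, and siControl was the deeper set. At an equal level a gene thus reaches 3 counts more easily in siControl and stays at 0 more easily in siControl_2. The part of depth in these numbers was not tested. PPARGC1A, a coactivator of mitochondrial biogenesis, had 19, 22 and 6 counts in the siControl libraries and 0 in siControl_2, which is at least 12.2-fold lower against a floor of 3 counts over the set. ESM1, a secreted proteoglycan of endothelial cells, had 6, 13 and 19 counts against 0, at least 9.85-fold lower. The call of ESM1 held in 2 of the 6 fits without 1 control library, those without siControl replicate 1 or 2 (adjusted p up to 0.0743). Both were singled out after their values were seen.

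The knockdown groups bear on the same genes without sharing any control library with this comparison when the double knockdown is set against the single knockdowns. Of the 961 genes higher in siControl_2, the double knockdown had a mean CPM above both single knockdowns in 543 (56.5%) and below both in 83 (8.64%). Of the 863 lower genes it was below both in 440 (51.0%) and above both in 75 (8.69%). Over all genes tested the shares were 29.1% above and 29.8% below. Among the leading rises DCN had a mean of 27.7 CPM in the double knockdown against 10.3 CPM in siZFX and 8.16 CPM in siZNF593, and CHL1 had 55.6 against 11.9 and 26.8 CPM. BDKRB2, with 0.623 CPM against 1.44 and 0.847 CPM, went against this order, and CXCL1 stood at 3.48, 12.6 and 3.898 CPM. The knockdowns differ between these groups as well, so the effect of the set and that of the double knockdown cannot be told apart here.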

How the data were processed

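The deposited files hold read counts per gene for each library in an unstranded column and in a column for each strand. The authors aligned reads with STAR, counted with HTSeq and used DESeq2, per the submitters' processing notes, which name hg38; the versions are not given in the sources used here. The gene IDs are those of GENCODE release 29. The unstranded counts were analysed, since reads of a gene fell on both strands in near equal parts, so overlapping and antisense partners cannot be separated.

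All 15 LN-229 libraries in 5 groups were fitted in R 4.3.3 with edgeR 4.0.16 (limma 3.58.1), using TMM factors, filterByExpr and the quasi-likelihood test, with Benjamini-Hochberg adjustment over 17684 genes and a threshold of 0.05. Every adjusted p is from this test unless another setting is named. Shares of reads were compared by exact permutation tests. A standard error is that of the fit and holds the spread between libraries. The limits given for a count of 0 cover counting error only, and the depth of 20111290 to 30159260 reads on genes per library allows 0.0369 CPM (siControl) or 0.0475 CPM (siControl_2) for a count of 0 over a set. Alternatives covered the normalisation, the filter on low counts, strand columns, offsets, the libraries in the fit, a replicate block, leaving out each control library or siZFX_siZNF593 replicate 3, and DESeq2 1.42.0.

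The comparison, the gene lists and the members were chosen with earlier results of these data known. Genes named are the siRNA targets, the 12 protein-coding and 4 non-coding genes of largest rise and of largest fall (called, mean of at least 5 CPM, no overlap between the sets), for each list the 4 tested genes farthest from 0, where it has as many, the 5 genes of highest mean CPM and the cell type markers. Further list members, LRP2, FLG, PPARGC1A and ESM1 were chosen after their values were seen. A few genes that these rules name are not reported here. Of 1385 list entries 1381 matched a symbol of the annotation and 4 an older or newer symbol. The test was tested on data simulated for this comparison from 17119 genes with 200 changed. It recovered 49.2% of those changed 1.5-fold, 55.2% at 2-fold and 84.8% at 4-fold, with 5 false calls.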

Additional observations from a re-analysis of the deposited data

How the results depend on the processing

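No named gene that was called changed direction under an alternative, but the number of calls changed. Against 961 higher and 863 lower genes, the fit of the 6 control libraries alone gave 1831 and 1869, that fit with the replicate block 1542 and 1571, GC and length offsets 1463 and 1521, and a threshold of 1.5-fold 426 and 292. Leaving out 1 library gave 616 to 1665 higher and 564 to 1838 lower genes, the highest of each without siZFX_siZNF593 replicate 3. Of the 1824 genes called, 1808 were also called in the fit of the 6 control libraries. The remaining settings stayed within 1.5 times: RLE factors 982 and 828, upper-quartile factors 1047 and 752, no filter 956 and 1118, at least 1 CPM 1016 and 869, both strands summed 1047 and 878, no mitochondrial genes 971 and 849, and DESeq2 1159 and 999, with 686 adjusted p not given. The cause of these shifts was not tested.

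The replicate numbers did not pair the libraries: the correlations of same-numbered deviations were -0.0086, -0.090 and -0.0035. With the replicate block in the fit of all 15 libraries 959 genes were higher and 860 lower.

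The difference in the share of reads that met no gene ran from -0.16 to 0.83 percentage points with 1 control library left out, and that in the mitochondrial share from 0.91 to 1.26. Over 258 named genes, 4269 values under an alternative kept direction and side of the threshold, 119 passed it anew, 201 no longer passed and 13 changed direction, all 13 in genes that were not called. With 1 library left out, log2 differences ran from -0.73 to 0.16 for DERL3, -0.83 to 0.33 for MT1X, -1.03 to 0.23 for NDUFV2, -0.73 to 0.13 for NDUFB8, -0.55 to 0.017 for CD14, -0.47 to 0.028 for U2AF1 and -0.023 to 0.089 for PDGFRA. With both strands summed DERL3 stood at 0.29 and RORA at 0.045. Of 46 list medians, 760 values stayed within the spread of the libraries, 64 moved and 3 changed sign: that of the neuronal genes was 0.062 in the fit of the 6 control libraries and 0.0077 there with the block, and that of the immune markers was -0.38 at a minimum of 1 CPM.

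Depth limits genes below about 1 CPM, where spread between libraries is large, and 3 libraries per set cannot give an exact permutation p below 0.1.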
